A study of Mus musculus with 45 samples.

Results

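Pancreatic islets of CAST/EiJ mice were compared with those of C57BL/6J mice on a single diet, the high fat, high sugar feed labelled 44% fat + fiber, by bulk sequencing of polyadenylated RNA. The comparison took every library that carries that diet in its title and either strain in its labels, 16 of the 45 libraries of the series, and all genes. CAST/EiJ is a wild-derived inbred strain and C57BL/6J the common laboratory strain; both were wild type and had no treatment other than the diet, which began at 6 weeks of age and ran to tissue collection at 16 weeks. Each strain had 8 libraries, 4 from females and 4 from males. The labels do not say whether each library is a separate mouse or a pool, so the p-values describe variation among these libraries, which may be technical in part.

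Islets are clusters of hormone cells within the digestive pancreas. Beta cells make insulin and couple glucose metabolism to its release through potassium and calcium channels, while alpha, delta, gamma and epsilon cells make glucagon, somatostatin, pancreatic polypeptide and ghrelin. Interferons and the molecules that display peptides to T cells, the major histocompatibility complex (MHC), are studied in islets because insulitis and autoimmune diabetes involve both.

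The samples matched their labels for tissue. Insulin transcripts made up 10.1% ± 1.69 (SD, n = 8) of the estimated counts in C57BL/6J and 11.5% ± 1.39 (SD, n = 8) in CAST/EiJ (exact permutation test within sex, two-sided p = 0.108). Transcripts of the acinar list, which mark digestive tissue carried along with islets, ranged from 0.24% to 15.2% in C57BL/6J and from 0.102% to 16.4% in CAST/EiJ (exact permutation test, two-sided p = 0.512). Library totals lay between 60.7 M and 97.8 M estimated counts, and the X- and Y-linked transcripts matched the sex labels in all 16 libraries. Transcripts that C57BL/6J islets make and CAST/EiJ islets nearly lack stood apart in 3 CAST/EiJ libraries: over 15 such markers the median level was 9.25%, 4.27% and 3.7% of the C57BL/6J level in CAST/EiJ female replicates 1, 2 and 4, and at most 0.222% in the other CAST/EiJ libraries. NZO/HlLtJ, another strain of the series, was not screened when these markers were chosen, so they do not name the source strain. Because these 3 libraries stood apart, the counts below were repeated without them. Repeats are given for the main lists and for others where a count moved by over 1.5 times or a call ended.

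Of 18824 genes tested, 10081 (53.6%) differed between the strains at an adjusted p under 0.05 (edgeR quasi-likelihood test, Benjamini-Hochberg). In CAST/EiJ 4753 (25.2%) were higher and 5328 (28.3%) lower, of which 1269 (6.74%) and 2152 (11.4%) differed at least 2-fold. All 8 libraries of 1 strain lay above all 8 of the other for 2058 genes (10.9%) higher and 2481 (13.2%) lower in CAST/EiJ. The median log2 difference over all genes tested was -0.03. All differences below are log2 values, CAST/EiJ minus C57BL/6J, with an approximate standard error (SE). This SE is the absolute log2 difference divided by the square root of the F statistic of the test. Levels are CPM, estimated counts scaled to a common library size with TMM factors. With so many genes called, a gene list is read against these background shares. Without the 3 libraries 9011 genes were called, 4233 higher and 4778 lower. The sample codes fall into 3 number series, 76, 80 and 89, whose meaning the labels do not give and each of which holds both strains. Within them alone 2461, 7524 and 6043 genes were called, and with the series as a factor 10725. Interferon members called lower numbered 15, 33 and 29 within the series, MHC class I members 7, 15 and 12, and delta cell markers 3, 4 and 3.

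**Figure D1:**
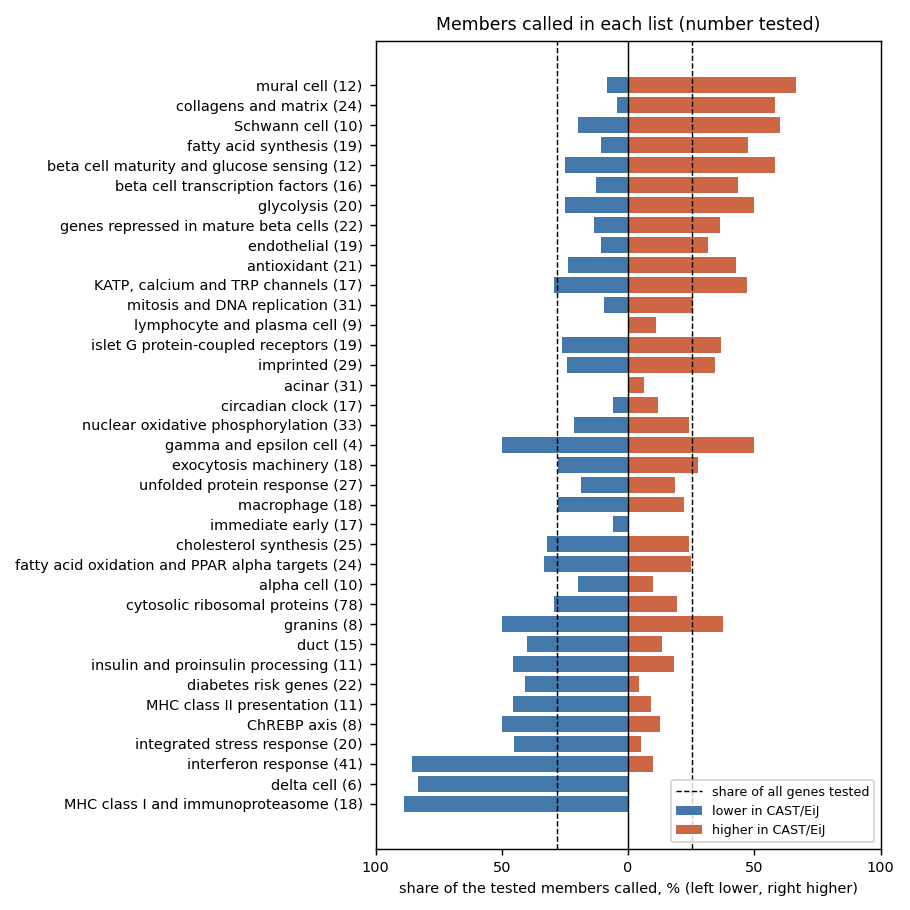
Share of the tested members of each gene list that were called lower (left) or higher (right) in CAST/EiJ on 44% fat, in percent, with the number tested in parentheses; dashed lines mark the shares over all genes tested, 28.3% lower and 25.2% higher. The interferon, MHC class I and delta cell lists reach far past the dashed line on the left, and the collagens and matrix, mural and Schwann cell lists on the right.

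Interferon response genes were lower in CAST/EiJ islets. Of 41 tested members, 35 were called lower and 4 higher, with a median log2 difference of -1.25 against -0.03 over all genes. In 27 of the lower members every CAST/EiJ library lay below every C57BL/6J library. The members include double-stranded RNA sensors, antiviral effectors and the transcription factors that switch them on. Summed over the list, the level was 398 to 495 CPM in C57BL/6J and 250 to 289 CPM in CAST/EiJ. Because these are bulk samples, fewer cells of a type and less RNA per cell cannot be told apart, here and in every result below.

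The promoters of 4 members, picked for their matches, are shown because they carry the sequence that the interferon-activated factor ISGF3 and the IRF factors are known to bind, the interferon-stimulated response element. Capitals mark matches to the letters GAAA, any 2 bases, then GAAA, searched on both strands, so that a match on the other strand reads TTTC, any 2 bases, TTTC; overlapping matches run together. Each line holds the 150 bases before the annotated start, 5′ to 3′ on the gene's strand, from RefSeq on GRCm38.p6, which is C57BL/6J sequence: Rsad2 at chr12:26456453-26456602 (minus strand), Ifit1 at chr19:34640739-34640888 (plus), Isg15 at chr4:156200819-156200968 (minus) and Oas1a at chr5:120907526-120907675 (minus).
Rsad2: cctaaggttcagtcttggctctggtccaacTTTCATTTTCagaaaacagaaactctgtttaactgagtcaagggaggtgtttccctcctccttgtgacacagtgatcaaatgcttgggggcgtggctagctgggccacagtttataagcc
Ifit1: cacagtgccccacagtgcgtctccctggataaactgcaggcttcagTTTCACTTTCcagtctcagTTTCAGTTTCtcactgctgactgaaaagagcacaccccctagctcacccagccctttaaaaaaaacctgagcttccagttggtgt
Isg15: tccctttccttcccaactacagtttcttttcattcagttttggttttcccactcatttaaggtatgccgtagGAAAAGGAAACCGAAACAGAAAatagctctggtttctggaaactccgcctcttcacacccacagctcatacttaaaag
Oas1a: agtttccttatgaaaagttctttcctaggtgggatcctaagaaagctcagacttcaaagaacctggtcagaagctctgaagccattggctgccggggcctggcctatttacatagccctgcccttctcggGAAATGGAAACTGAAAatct
Rsad2 holds 1 match, Ifit1 and Oas1a hold 2 each and Isg15 holds 3, with the matches of Isg15 and of Oas1a overlapping. In windows of 250 bases before to 50 bases after the start, 18 of the 28 tested interferon members with a window (64.3%) hold at least 1 match, against 3.99% of 27025 genes. Among all tested genes the share was 4.33% of those called lower and 3.07% of those called higher. Of the MHC class I members with a window 4 of 16 hold a match. A match describes the reference letters only; the CAST/EiJ sequence was not analysed here.

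Among the sensors, Ifih1, which encodes the cytosolic double-stranded RNA receptor MDA5, stood at 20.7, 27.8 and 45.9 CPM (lowest, median, highest) in C57BL/6J and at 3.72, 5.17 and 8.91 CPM in CAST/EiJ. The strains did not overlap, and the log2 difference was -2.44 ± 0.15 (SE; edgeR, adjusted p = 5.38e-10). Oasl2, a 2′-5′ oligoadenylate synthetase-like antiviral gene, ran from 6.36 through 9.32 to 11.6 CPM in C57BL/6J and from 1.27 through 1.4 to 2.47 CPM in CAST/EiJ. Its difference was -2.58 ± 0.14 (adjusted p = 5.24e-11), again with no overlap.

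Rsad2 encodes viperin, an antiviral enzyme (chr12:26442753-26456452, minus strand). Its levels were 10.4, 16 and 18.1 CPM in C57BL/6J and 2.06, 3.6 and 6.23 CPM in CAST/EiJ, a difference of -2.03 ± 0.18 (adjusted p = 5.28e-08). The highest CAST/EiJ value was in female replicate 1, and it was still below every C57BL/6J library. Irf7, a transcription factor that amplifies interferon production, differed by -2.24, and the antiviral effectors Oas1a, Ifit3, Isg15 and Ifit1 by -3.05, -2.50, -1.41 and -1.26.

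Iigp1, an immunity-related GTPase, was close to absent in CAST/EiJ. C57BL/6J ranged from 3.56 to 10.1 CPM, whereas 5 of the 8 CAST/EiJ libraries held no count and the 3 others, at most 0.183 CPM, were female replicates 1, 2 and 4. The 8 C57BL/6J libraries held 3573 counts in all and the 8 CAST/EiJ libraries 37. Ifi44, another interferon-induced gene, showed a difference of -4.70.

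Against this direction, Usp18 was higher in CAST/EiJ. The gene encodes the protease that removes ISG15 from proteins and restrains signalling from the type I interferon receptor, and it lies at chr6:121245906-121270917 (plus strand). C57BL/6J libraries held 13.9, 16.4 and 17.7 CPM and CAST/EiJ libraries 34.1, 43.8 and 54.1 CPM. The groups did not overlap, with a difference of 1.46 ± 0.08 (adjusted p = 1.2e-10).

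Mx2, an antiviral GTPase, was also higher, at 1.15, 1.62 and 2.51 CPM in C57BL/6J against 2.43, 3.63 and 5.04 CPM in CAST/EiJ. The difference was 1.10 ± 0.18 (adjusted p = 5.53e-05), with the ranges overlapping slightly. Xaf1, an interferon-induced promoter of apoptosis, differed by 0.42, and Oas1b, the synthetase linked to flavivirus resistance in mice, by 0.41. Oas1b passed narrowly (adjusted p = 0.045). It missed the threshold without the 3 libraries (0.147) and in 12 of the 16 fits that left out a single library. Mx1, the influenza restriction factor, at 0.19 (adjusted p = 0.712), and Gbp3, a guanylate-binding protein, at -0.07 (0.678), were not called. Without the 3 libraries 34 interferon members were called lower and 3 higher.

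Genes of MHC class I presentation followed the same direction: 16 of 18 tested members were called lower and none higher, 12 of them without overlap, with a median of -0.94. Without the 3 libraries 15 were called lower. H2-D1, a classical class I heavy chain (chr17:35262730-35267499, plus strand), had 214, 267 and 310 CPM in C57BL/6J and 28.0, 34.8 and 51.5 CPM in CAST/EiJ. The difference was -2.90 ± 0.11 (adjusted p = 8.94e-13), and no library overlapped.

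H2-K1, the other classical heavy chain of C57BL/6J (chr17:33996017-34000333, minus strand), had 256, 331 and 383 CPM against 60.9, 73.5 and 90.2 CPM. Its difference was -2.17 ± 0.09 (adjusted p = 1.57e-12). The nonclassical heavy chains H2-T22 and H2-T23 differed by -2.92 and -1.39, and Psmb8, a catalytic subunit of the immunoproteasome, by -1.23. Beta-2 microglobulin (B2m), the light chain shared by all class I molecules, differed by -0.37 (adjusted p = 0.0107), and by -0.32 without the 3 libraries (0.0955). H2-Q10, at -0.66, and the peptide-loading chaperone Tapbp, at -0.11, were not called. Tapbp was called without C57BL/6J female replicate 4 (edgeR, -0.15, adjusted p = 0.0302) and in series 80 alone (-0.23, 0.045).

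Class I heavy chains are near-identical and differ in sequence between strains, so estimated counts can be divided among them or lost. Summed over 14 class I heavy chain genes the level was 629, 781 and 888 CPM in C57BL/6J and 172, 199 and 238 CPM in CAST/EiJ, a log2 ratio of means of -1.94, with no overlap. The sources used here do not say how the counting treated strain variants, and its part in this and in the near-absent genes was not tested.

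**Figure D2:**
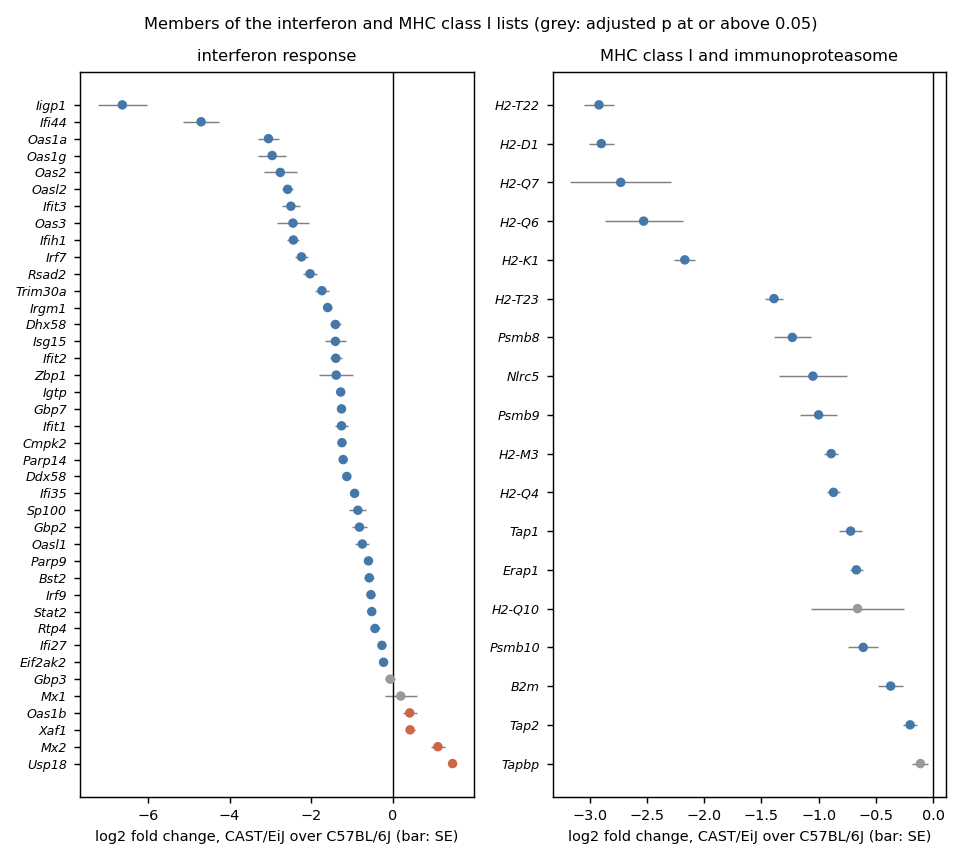
Log2 difference of tested members of the interferon list and the MHC class I list, CAST/EiJ over C57BL/6J on 44% fat. Bars are the approximate SE derived from the F statistic (8 libraries a strain), and grey points were not called. Most points lie left of 0, with Usp18 at 1.46 and Mx2 at 1.10 on the right of the interferon panel.

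MHC class II genes, expressed by antigen-presenting cells, were more mixed. Of 11 tested members 5 were called lower and 1 higher, with a median of -0.74; without CAST/EiJ male replicate 1 the count was 8 lower, and without C57BL/6J female replicate 1 or CAST/EiJ male replicate 2 it was 2 higher. The beta chain H2-Ab1 had 37.5, 50.7 and 59.3 CPM in C57BL/6J and 11.7, 15.4 and 30.1 CPM in CAST/EiJ. The strains did not overlap, and the difference was -1.45 ± 0.19 (adjusted p = 7.88e-06). H2-Aa and H2-Eb1, further chains, differed by -1.02 and -0.93, and the invariant chain Cd74 by -0.74, each with overlapping libraries.

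H2-Ea-ps, the class II alpha chain gene known to be silenced by a promoter deletion in C57BL/6J, ran from 0 to 0.256 CPM in that strain and from 7.23 to 14.9 CPM in CAST/EiJ. Counts of macrophage markers lay near the shares over all genes tested, 28.3% lower and 25.2% higher. Their differences ran from -1.58 to 1.54. Of 18 tested macrophage markers 5 were lower and 4 higher (5 and 2 without the 3 libraries, and 3 lower without any of C57BL/6J female replicate 3, C57BL/6J male replicate 4 or CAST/EiJ male replicates 2 and 4), and their summed level was 122 to 199 CPM in C57BL/6J and 128 to 203 CPM in CAST/EiJ. Adgre1, which encodes the F4/80 surface protein, had 3.36, 5.5 and 6.6 CPM against 1.09, 1.85 and 2.76 CPM, a difference of -1.58 ± 0.16 (adjusted p = 2.4e-07) without overlap. Ctss, a protease that trims the invariant chain, differed by -1.0. The part of macrophage number in the class II result was not tested. Of 9 tested lymphocyte and plasma cell markers 1 was called higher and none lower, but 4 were called lower without CAST/EiJ male replicate 1, and 2 higher without CAST/EiJ female replicate 2 or male replicate 2.

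Beta cell identity genes were mostly level or higher in CAST/EiJ. The insulin genes differed from each other. Ins1 had 27100, 33200 and 39200 CPM in C57BL/6J and 38600, 44200 and 51700 CPM in CAST/EiJ, a difference of 0.44 ± 0.10 (adjusted p = 0.000808) with slight overlap. Ins2 had 53900, 69500 and 82300 CPM against 57400, 71000 and 83600 CPM and was not called, at 0.03 ± 0.10 (adjusted p = 0.817). Iapp, which encodes amylin, was not called either, at -0.14 (0.218), but was called without C57BL/6J female replicate 4 (-0.20, adjusted p = 0.0323).

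Of 16 tested beta cell transcription factors 7 were called higher and 2 lower (median 0.16). Mafa, an activator of insulin transcription in mature beta cells, had 34.3, 45.1 and 69.5 CPM in C57BL/6J and 60.2, 82.8 and 140 CPM in CAST/EiJ. The difference was 0.91 ± 0.18 (adjusted p = 0.000531), with overlapping ranges. Pdx1, required for pancreas development and beta cell identity, had 122, 144 and 172 CPM against 159, 254 and 352 CPM, a difference of 0.82 ± 0.13 (adjusted p = 6.36e-05). Nkx2-2, Mnx1 and Nkx6-1, homeodomain factors of beta cells, differed by 0.77, 0.66 and 0.40. Rfx6, a factor of endocrine cell development, was among the lower members, at -0.40. Without the 3 libraries the list gave 6 higher and 1 lower.

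Glucose sensing and maturity genes gave 7 higher and 3 lower of 12 tested (median 0.53). Slc2a2 encodes GLUT2, the main glucose transporter of mouse beta cells. It had 572, 834 and 992 CPM in C57BL/6J and 1050, 1260 and 1480 CPM in CAST/EiJ, with no overlap and a difference of 0.59 ± 0.11 (adjusted p = 0.000118). Ucn3, a peptide secreted by mature beta cells, had 238, 365 and 412 CPM against 384, 493 and 617 CPM, a difference of 0.47 ± 0.11 (adjusted p = 0.00159). Trpm5, a calcium-activated cation channel, Ppp1r1a, a phosphatase inhibitor, and Ffar1, a fatty acid receptor, were higher by 0.95, 0.94 and 0.88.

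Lower members of the list included Gpd2, the mitochondrial glycerol phosphate dehydrogenase that shuttles reducing equivalents. It had 69.1, 108 and 153 CPM in C57BL/6J and 41.8, 50.8 and 67.7 CPM in CAST/EiJ. Its strains did not overlap, and the difference was -1.14 ± 0.15 (adjusted p = 1.06e-05). G6pc2, which removes the phosphate from glucose 6-phosphate, differed by -0.50.

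Of 17 tested channel genes 8 were called higher and 5 lower (median 0.25). Kcnk16, the potassium leak channel TALK-1, had 66.1, 80.6 and 85.8 CPM in C57BL/6J and 20.7, 26.4 and 31.9 CPM in CAST/EiJ. No library overlapped, and the difference was -1.58 ± 0.08 (adjusted p = 1.75e-11). Of the subunits of the ATP-sensitive potassium channel, Abcc8 differed by -0.24 and Kcnj11 by -0.10, the latter not called (edgeR, adjusted p = 0.0907). Kcnj11 was called without CAST/EiJ female replicate 3 (-0.13, 0.0247), with the acinar score as a covariate (-0.12, 0.0257) and with a filter at a minimum count of 50 (-0.11, 0.046). Trpm2, a calcium-permeable channel, differed by 1.24, and Itpr3, a calcium release channel of the endoplasmic reticulum, by -1.11.

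Of 19 tested receptors that tune insulin release 7 were called higher and 5 lower (median 0.16). The shares over all genes tested were 25.2% higher and 28.3% lower. Glp1r, the receptor for the incretin GLP-1, had 146, 172 and 247 CPM in C57BL/6J and 86.5, 103 and 131 CPM in CAST/EiJ. The libraries did not overlap, and the difference was -0.76 ± 0.10 (adjusted p = 5.89e-06). Gipr, the receptor of the other incretin, lay near the threshold, at 0.28 (adjusted p = 0.0657). It was called with the number series as a factor (0.35, 0.0123), with DESeq2 (0.30, 0.0287), with limma-trend (0.30, 0.0452), without C57BL/6J male replicate 3 (0.39, 0.00278) and in females alone (0.52, 0.00909). It was not called in males alone (0.07, 0.775) or without the 3 libraries (0.15, 0.417). Gcgr, the glucagon receptor, had 18.3, 20.3 and 25.1 CPM against 35.1, 43.5 and 56.3 CPM, a difference of 1.08 ± 0.09 (adjusted p = 1.03e-08) without overlap.

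Galr1, a receptor for the inhibitory peptide galanin, had 22.9, 28.7 and 34.8 CPM in C57BL/6J and 8.73, 11.7 and 14.9 CPM in CAST/EiJ. It did not overlap between strains, at -1.31 ± 0.10 (adjusted p = 9.03e-09). Cckar, the cholecystokinin receptor, had 0.61, 11.8 and 53.3 CPM against 61.4, 118 and 247 CPM, a difference of 2.61 ± 0.64 (adjusted p = 0.00356). Acinar cells also make Cckar, and its highest CAST/EiJ value was in male replicate 2, the library with the highest acinar share (16.4%). With the acinar score, the mean log2 CPM of the acinar list, as a covariate the difference was 3.23 (adjusted p = 0.000598). It was 2.45 without that library (0.00695), 2.99 in males alone (0.0278) and 2.25 in females alone, where it was not called (0.137).

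**Figure D3:**
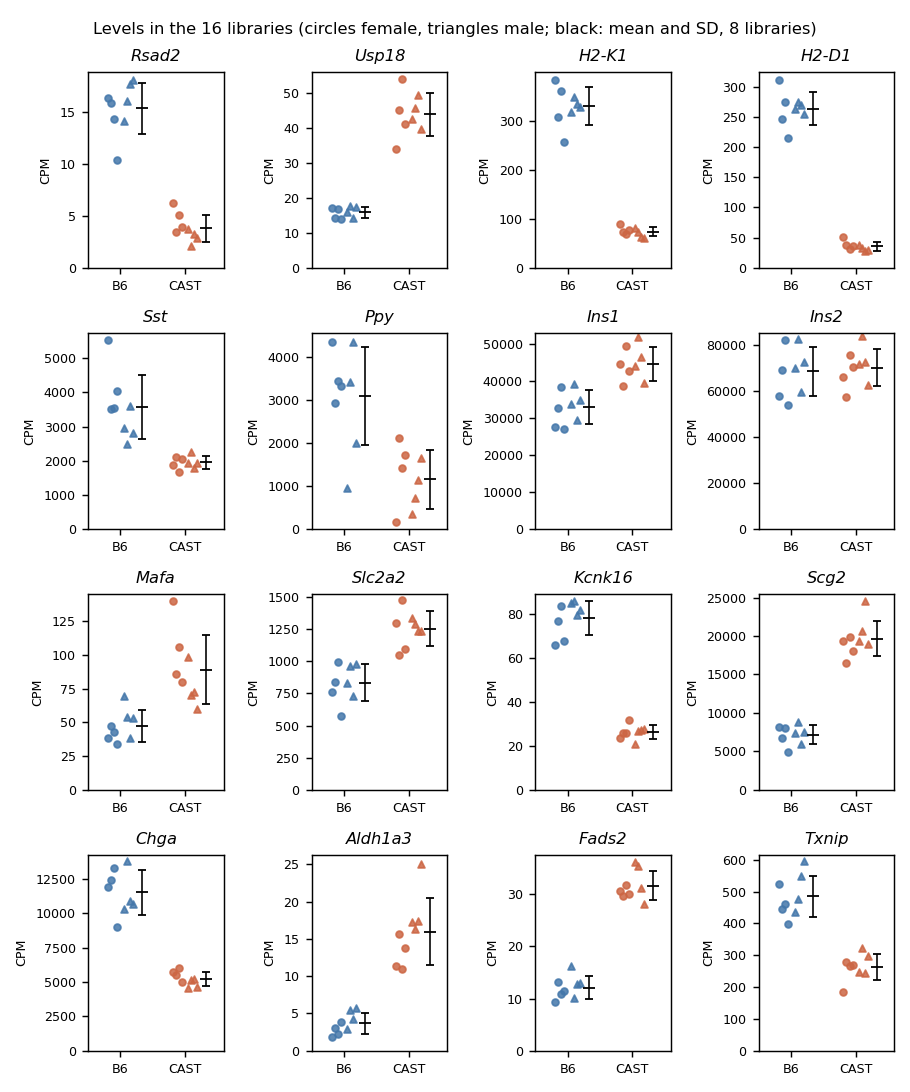
CPM of selected genes in each library on 44% fat, 8 C57BL/6J (B6) and 8 CAST/EiJ libraries, 1 panel a gene with its own axis from 0; circles are females, triangles males, and black marks the mean with SD (n = 8). The strains separate without overlap for Rsad2, H2-K1, Usp18 and Scg2, and overlap for Ins2.

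Granins, the acidic cargo proteins of secretory granules, split by member. Of 8 tested, 3 were called higher and 4 lower (median -0.30). Scg2, secretogranin II, had 4910, 7430 and 8790 CPM in C57BL/6J and 16500, 19300 and 24500 CPM in CAST/EiJ, a difference of 1.46 ± 0.11 (adjusted p = 5.72e-09) with no overlap. Chga, chromogranin A, had 8980, 11400 and 13800 CPM against 4560, 5170 and 6030 CPM, a difference of -1.14 ± 0.09 (adjusted p = 1.25e-08), also with no overlap. Vgf, a granin that is cut into bioactive peptides, was higher by 1.19, and Chgb, chromogranin B, differed by -0.70.

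In the list of insulin and proinsulin processing genes, which also holds G6pc2, 2 were higher and 5 lower of 11 tested (median -0.16). Scg5, the chaperone of the convertase PC2, was higher, at 1.00. Pam, which amidates peptide ends, and Pcsk1, the convertase PC1/3, differed by -0.84 and -0.47. Of 18 exocytosis genes 5 were higher and 5 lower, with a median of 0.07; without C57BL/6J female replicate 3 the count was 8 higher.

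Other endocrine cell types differed from each other. All 6 tested delta cell markers had negative differences and 5 were called lower (median -1.07), 4 of them without overlap; without the 3 libraries the count was again 5. Sst, somatostatin, which restrains insulin and glucagon release, had 2500, 3530 and 5550 CPM in C57BL/6J and 1660, 1940 and 2250 CPM in CAST/EiJ. No library overlapped, and the difference was -0.85 ± 0.12 (adjusted p = 1.39e-05). Hhex, the transcription factor that maintains delta cells, had 9.06, 14.1 and 25.7 CPM against 5.61, 7.27 and 8.82 CPM, a difference of -1.08 ± 0.17 (adjusted p = 3.83e-05). The ghrelin receptor Ghsr and the receptor-type phosphatase Ptprz1 differed by -1.55 and -1.07.

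Alpha cell genes gave 1 higher and 2 lower of 10 tested (median -0.20), and 1 and 1 without the 3 libraries. Gcg, glucagon, had 12500, 29200 and 64800 CPM in C57BL/6J and 21100, 25900 and 31900 CPM in CAST/EiJ, and was not called at -0.24 ± 0.19 (adjusted p = 0.291). Gc, which encodes the vitamin D binding protein and marks alpha cells, differed by -0.81, and Pou3f4, an alpha cell factor, by 1.24.

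Ppy, pancreatic polypeptide, had 958, 3370 and 4340 CPM in C57BL/6J and 167, 1270 and 2100 CPM in CAST/EiJ. The ranges overlapped, and the difference was -1.43 ± 0.45 (adjusted p = 0.0139). Pyy, the related peptide YY, differed by -1.08. Ghrl, ghrelin, had 1.35, 5.13 and 7.71 CPM against 2.77, 11.7 and 17.9 CPM, a difference of 1.29 ± 0.38 (adjusted p = 0.0093) with overlap.

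Npy, neuropeptide Y, was the islet peptide with the largest difference among those named here. It had 4.44, 8.41 and 14.8 CPM in C57BL/6J and 150, 218 and 282 CPM in CAST/EiJ, a difference of 4.70 ± 0.23 (adjusted p = 1.76e-10) and no overlap. Aldh1a3, a retinaldehyde dehydrogenase known as a marker of beta cells that lose their identity in diabetes, had 1.91, 3.42 and 5.67 CPM against 11.0, 16 and 25.1 CPM. It differed by 2.15 ± 0.16 (adjusted p = 7.17e-09), also without overlap. In the same list of 6 tested markers 3 were higher and 2 lower: Myc, a growth-promoting transcription factor, was higher by 0.62, and Fev, a factor of endocrine progenitors, differed by -0.88. Of 22 genes that mature beta cells normally repress 8 were higher and 3 lower, and 6 and 2 without the 3 libraries.

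In metabolism, Nnt, the proton-pumping transhydrogenase of mitochondria with a known deletion in C57BL/6J, was higher in CAST/EiJ. It had 27.8 to 35.1 CPM in C57BL/6J and 90.9 to 118 CPM in CAST/EiJ, a difference of 1.69 ± 0.07 (adjusted p = 8.52e-13). Of 21 antioxidant genes 9 were higher and 5 lower (median 0.04), and 9 and 3 without the 3 libraries. Nqo1, a quinone reductase, differed by 1.40, and Gpx3, a secreted glutathione peroxidase, and Gstm1, a glutathione transferase, by -1.0 and -0.63.

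Of 19 genes of fatty acid synthesis and desaturation 9 were higher and 2 lower (median 0.13), and 7 and 2 without the 3 libraries. Fads2, the delta-6 desaturase of polyunsaturated fatty acid synthesis, had 9.4, 12.1 and 16.3 CPM in C57BL/6J and 28.2, 30.9 and 36.2 CPM in CAST/EiJ. No library overlapped, and the difference was 1.39 ± 0.09 (adjusted p = 3.74e-10). Its partner Fads1 and the stearoyl-CoA desaturase Scd2 were higher by 1.00 and 1.36, whereas the elongase Elovl7 differed by -1.92. Genes of fatty acid oxidation (6 higher, 8 lower of 24) and cholesterol synthesis (6 higher, 8 lower of 25) had medians of 0.01 and -0.05; without the 3 libraries they gave 6 higher and 7 lower, and 5 higher and 6 lower.

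Of 20 glycolysis genes 10 were higher and 5 lower (median 0.22), and 7 and 4 without the 3 libraries. Eno2, neuron-specific enolase, had 42.9, 48.0 and 50.7 CPM in C57BL/6J and 135, 140 and 159 CPM in CAST/EiJ, a difference of 1.59 ± 0.05 (adjusted p = 5.27e-14) with no overlap. The aldolase Aldoc and the liver-type pyruvate kinase Pklr were higher by 1.16 and 1.00. Txnip, a thioredoxin inhibitor induced by glucose through the factor ChREBP, had 399, 470 and 595 CPM against 185, 268 and 322 CPM. It did not overlap, at -0.88 ± 0.10 (adjusted p = 4.4e-07), and its relative Arrdc4, also a ChREBP target, differed by -0.80.

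The integrated stress response gave 1 higher and 9 lower of 20 tested (median -0.30), and 1 and 7 without the 3 libraries. Trib3, a target of the factors ATF4 and CHOP, had 4.34, 7.09 and 18.4 CPM in C57BL/6J and 2.67, 3.66 and 5.22 CPM in CAST/EiJ. The ranges overlapped, and the difference was -1.19 ± 0.25 (adjusted p = 0.000704). Chac1, a glutathione-degrading enzyme, and Phgdh, the first enzyme of serine synthesis, differed by -1.21 and -1.54. Genes of the unfolded protein response (5 higher and 5 lower of 27, median 0.06) and of nuclear-encoded oxidative phosphorylation (8 higher and 7 lower of 33, median 0.05) had medians near 0, and without the 3 libraries they gave 5 higher and 3 lower, and 9 higher and 4 lower.

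Collagens and matrix genes were higher in CAST/EiJ in 14 of 24 tested members and lower in 1 (median 0.54), the same counts as without the 3 libraries. Col1a1, a chain of type I collagen, had 18.7, 36.5 and 81.0 CPM in C57BL/6J and 69.4, 89.5 and 122 CPM in CAST/EiJ. The ranges overlapped, and the difference was 1.20 ± 0.26 (adjusted p = 0.00116). Col3a1, Col5a2 and Sparc, the first a fibrillar collagen, the next a minor fibril chain and the last a collagen-binding glycoprotein, were higher by 1.15, 1.01 and 0.96 without overlap. Summed over the list, the level was 860 to 1540 CPM in C57BL/6J and 1420 to 1920 CPM in CAST/EiJ.

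Markers of the cells that make or hold matrix moved with it to differing degrees. Mural cell markers were higher in 8 and lower in 1 of 12 (median 0.38), but their summed level was 256 to 380 CPM in C57BL/6J and 216 to 313 CPM in CAST/EiJ. The lower member, Rgs5, a regulator of G protein signalling in pericytes, differed by -1.21. Schwann cell markers were higher in 6 and lower in 2 of 10 (median 0.86), and 4 and 2 without the 3 libraries. Of these, Cdh19, a cadherin of Schwann cell precursors, differed by 1.28. Endothelial markers, 6 higher and 2 lower of 19 (median 0.03), summed to 905 to 1270 CPM in C57BL/6J and 972 to 1190 CPM in CAST/EiJ. Duct markers, 2 higher and 6 lower of 15 (median -0.28; 1 and 6 without the 3 libraries), summed to 556 to 804 CPM and 517 to 698 CPM. The part of these cells in the matrix result was not tested.

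Of 31 acinar genes 2 were called higher and none lower, with a median of -0.59. The higher members were Prss1, a trypsinogen, at 5.18 (adjusted p = 0.0131), and Ctrc, a chymotrypsin-like protease, at 5.05 (0.00299), while the trypsinogen Prss2 was at -0.95 (0.463). Trypsinogens are near-identical, so the split among them is uncertain. Prss1 was not called without CAST/EiJ male replicate 2, the library with the highest acinar share (4.48, adjusted p = 0.0921), and was at 7.46 without C57BL/6J male replicate 2 (0.000511); Ctrc was at 4.31 (0.0127) and 6.06 (0.00107) in those fits. With the acinar score as a covariate 4 were called higher and 17 lower. Prss1 was then not called (3.92, adjusted p = 0.0588) and Prss2 was called lower (-0.65, 0.000122). The score is the mean of this same list, so each member was set against an average that holds it. These calls therefore cannot show whether an acinar gene differs between the strains. Under that fit the interferon counts were 3 higher and 35 lower.

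Mitosis and DNA replication genes gave 8 higher and 3 lower of 31 tested (median 0.30). The count depended on the libraries. It was 3 higher and 1 lower without the 3 libraries, 16 higher without C57BL/6J male replicate 1 and 13 without C57BL/6J male replicate 4. In females alone it was 12 higher and 2 lower, and in males alone none was higher and 1 lower. Mki67, the proliferation marker, had a difference of 0.42 (adjusted p = 0.0791). It was called in females alone (0.85, 0.00139) but not in males alone. DESeq2 (0.43, 0.0335) and limma on the authors' variance-stabilised values (0.43, 0.0468) called it. So did fits without C57BL/6J male replicate 1 (0.54, 0.0163), C57BL/6J male replicate 4 (0.49, 0.0496) or CAST/EiJ male replicate 4 (0.50, 0.0416).

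Of 29 imprinted genes 10 were higher and 7 lower (median 0.02). Magel2, a paternally expressed gene of the Prader-Willi region, had 0.0467, 0.129 and 0.305 CPM in C57BL/6J and 4.06, 7.4 and 9.84 CPM in CAST/EiJ. The strains did not overlap, and the difference was 5.39 ± 0.30 (adjusted p = 8.43e-11). Nnat, Dlk1 and Peg10, paternally expressed genes, were higher by 2.56, 2.25 and 1.92, and Igf2, an insulin-like growth factor, differed by -1.10.

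Over all genes, 16 with a descriptive symbol were near-absent in C57BL/6J, under 0.5 CPM on average against at least 5 CPM in CAST/EiJ, and 17 were near-absent the other way. Kcnj5, a G protein-gated potassium channel subunit, had 0.0584, 0.223 and 0.358 CPM in C57BL/6J and 17.0, 22.6 and 43.5 CPM in CAST/EiJ, so that the CAST/EiJ mean was 128 times as high. Tspan10, a tetraspanin, had at most 0.0624 CPM in C57BL/6J, while CAST/EiJ ranged from 0.111 to 11.7 CPM, a spread wider than that of Kcnj5. Ccdc190 and the glutamate transporter Slc1a7 had CAST/EiJ means 178 and 129 times as high.

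In the other direction, Folr1, a folate receptor, had 15.2, 23.7 and 38.0 CPM in C57BL/6J and 0.0124, 0.228 and 2.07 CPM in CAST/EiJ. Olfm4, an olfactomedin of epithelial progenitors, had 13.9, 17.9 and 26.8 CPM against 0, 0.0398 and 1.88 CPM. The C57BL/6J means were 50.6 and 45.2 times as high. For Lefty1, a TGF-beta family inhibitor, Crb1, a polarity protein, Fam213b and the GTPase gene Tgtp2 they were 50.7, 43.2, 57.2 and 63.4 times as high.

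The size of these ratios depends on the 3 CAST/EiJ libraries. Female replicates 1, 2 and 4 held Folr1 at 8.31%, 1.87% and 2.84% of the C57BL/6J mean and Olfm4 at 9.87%, 3.44% and 3.92%. In the other 5 CAST/EiJ libraries Folr1 was at most 0.264 CPM and Olfm4 at most 0.0638 CPM. Without the 3 libraries the fitted differences moved from -5.89 to -7.25 for Folr1 and from -5.76 to -9.83 for Olfm4. For genes that CAST/EiJ islets do make, the same libraries stood apart less or not at all. H2-D1 was at 51.5, 37.2 and 36.7 CPM in female replicates 1, 2 and 4 and at 28 to 38.5 CPM in the other 5, H2-K1 at 90.2, 73.5 and 76.2 CPM against 60.9 to 81.8 CPM, and Rsad2 at 6.23, 3.48 and 3.94 CPM against 2.06 to 5.13 CPM. Of these libraries, female replicate 1 was the highest of its strain for all 3 genes, and replicates 2 and 4 lay within the range of the other 5. For Ifih1 all 3 lay above the other 5, at 8.91, 5.85 and 6.52 CPM against 3.72 to 5.41 CPM.

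**Figure D4:**
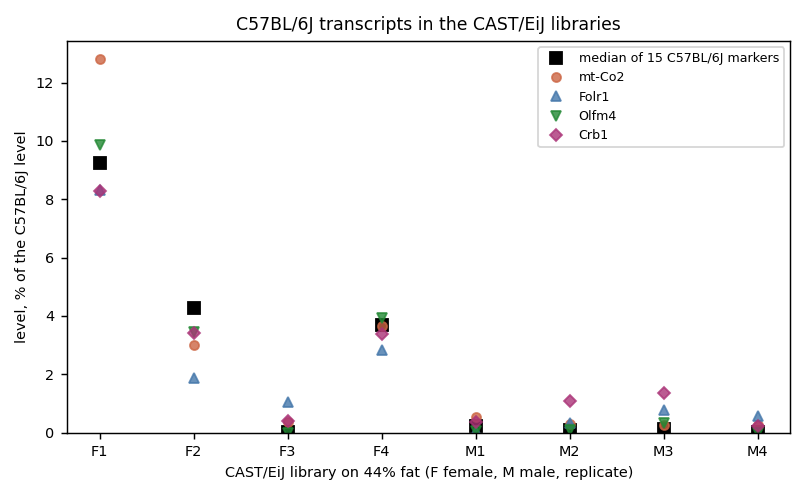
Transcripts that C57BL/6J islets make and CAST/EiJ islets nearly lack, in each of the 8 CAST/EiJ libraries on 44% fat. Levels are percentages of the C57BL/6J level. Squares are the median over 15 such markers, and the other symbols are single genes. Female replicates 1, 2 and 4 stand above the other CAST/EiJ libraries, with replicate 1 highest at 9.25%.

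Among genes with at least 5 CPM on average in the lower strain, the largest non-overlapping differences toward CAST/EiJ included Fam84a at 5.65, the carbonic anhydrase gene Car15 at 5.55, the secreted factor Angptl7 at 4.86 and the actin-associated gene Nebl at 3.72. Hspb8, a small heat shock protein, had 14.6, 19.1 and 24.2 CPM in C57BL/6J and 118, 264 and 462 CPM in CAST/EiJ (difference 3.74 ± 0.23, adjusted p = 2.22e-09). Toward C57BL/6J, Prom1, which encodes the membrane protein CD133, had 84.5, 108 and 137 CPM against 5.13, 10.1 and 13.3 CPM (difference -3.45 ± 0.18, adjusted p = 1.27e-10). Msln, mesothelin, the X-linked long noncoding RNA Firre, the glucuronosyltransferase Ugt2b34 and the cilium gene Mns1 differed by -3.18, -3.15, -3.15 and -2.87.

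Several of the largest calls were in genes with near-identical copies, where the sum over the copies was close to level; these sets were chosen after their values were seen. Rpl9, a ribosomal protein gene, had a median of 14.8 CPM in C57BL/6J and 245 CPM in CAST/EiJ. Its pseudogene Rpl9-ps6 had medians of 230 and 0.243 CPM, and the family summed to 246 and 247 CPM. The same held for Rpl17, Rpl19 and Rps12, whose own calls were 4.74, 3.32 and 4.41 and whose family sums had log2 ratios of -0.13, -0.08 and -0.14. Rps13 went the other way, from 118 to 15.9 CPM, while Rps13-ps1 went from 0.935 to 98 CPM and the family from 120 to 116 CPM.

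Protein-coding copies gave the same picture. Eno1b had 0.104 and 37.6 CPM beside Eno1 at 131 and 98.9 CPM, with sums of 131 and 140 CPM. For Amd2 beside Amd1 the sums were 109 and 121 CPM, and for Tpm3-rs7 beside Tpm3 74.6 and 77.7 CPM. Amy2a3, a pancreatic amylase gene, had medians of 9670 and 0.571 CPM and Amy2b 23.8 and 4160 CPM, while the family had medians of 22800 and 10600 CPM and reached 118000 CPM in C57BL/6J and 130000 CPM in CAST/EiJ. The Tmem254 family did not sum to a level value, with 24.5 and 8.38 CPM. Calls on single members of such families, among them the 15 higher and 23 lower of 78 ribosomal protein genes (15 and 13 without the 3 libraries, and 36 lower without CAST/EiJ male replicate 2), are uncertain as statements about the gene.

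**Figure D5:**
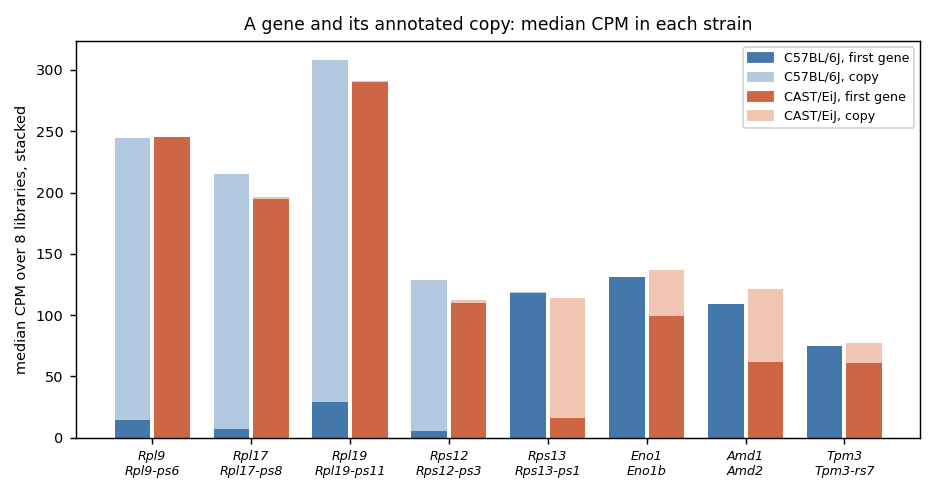
Median CPM over the 8 libraries of each strain on 44% fat for gene pairs with near-identical copies, stacked, so that bar height is the sum over the pair. The height is close between C57BL/6J and CAST/EiJ while the shares of the members exchange, as for Rpl9 and Rpl9-ps6.

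Mitochondrially encoded transcripts gave a similar contrast between a member and its group. Their summed level was 21600, 26300 and 32700 CPM in C57BL/6J and 23200, 27100 and 31500 CPM in CAST/EiJ, and 2 of 13 protein-coding members were higher and 2 lower. When the number series was a factor the count was 5 higher, and it was also 5 without CAST/EiJ male replicate 2 or C57BL/6J male replicate 4. mt-Co2, a subunit of cytochrome oxidase, had 864, 1090 and 1450 CPM against 2.8, 5.04 and 142 CPM, a difference of -6.24 ± 0.96 (adjusted p = 8.1e-05). Its 3 highest CAST/EiJ values were in female replicates 1, 4 and 2, at 12.8%, 3.65% and 2.99% of the C57BL/6J mean, and the other 5 libraries lay between 2.8 and 6 CPM. The complex I subunits mt-Nd3 and mt-Nd2 differed by -1.19 and 0.76, and the ATP synthase subunit mt-Atp6 by 0.57. The nuclear gene Atp5g2, a subunit of the same synthase, differed by 3.82, with means of 5.09 CPM in C57BL/6J and 72.1 CPM in CAST/EiJ. The 33 tested members of the nuclear oxidative phosphorylation list lay between -0.51 and 0.51. Whether Atp5g2 shares counts with near-identical copies was not tested.

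The same strains on the 10% fat control diet, in 15 other libraries, gave 8829 calls among 18906 genes (46.7%). In CAST/EiJ 4223 (22.3%) were higher there and 4606 (24.4%) lower, and the median log2 difference over all genes was -0.007. Of the genes called on 44% fat and tested on both diets 77.1% were also called on 10% fat in the same direction, and of those called on 10% fat 88.5% were called on 44% fat. On 10% fat the interferon list had 28 lower and 5 higher (median -0.95), MHC class I 11 lower and none higher (-0.78) and the delta cell list 5 lower and none higher (-0.90). Mitosis and DNA replication genes had 23 higher and 1 lower there, with a median of 0.90 against 0.30 on 44% fat.

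The test of the difference itself, the strain by diet interaction over 31 libraries, called 0 of 19772 genes (edgeR quasi-likelihood test, Benjamini-Hochberg; 836 at an unadjusted p under 0.05). DESeq2 called 9, a model of all 45 libraries 3 and limma-trend 0. Whether the strain difference varied with sex was tested on the 16 libraries: 2 of 18824 genes (0.0106%) were called, and 919 had an unadjusted p under 0.05. DESeq2 called 49, a model that included the number series 5, and the fits that left out a single library 1 to 45, the 45 without CAST/EiJ female replicate 3.

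Tsix, the antisense transcript of Xist, differed by 0.08 in females and by 5.18 in males, an interaction of 5.10 (adjusted p = 0.00125). It was called in all 16 fits that left out a single library, but not without the 3 libraries and C57BL/6J female replicate 2 (5.10, 0.332), which left 1 CAST/EiJ female. It stood at 3.65 to 11.4 CPM in C57BL/6J females, 0.0621 to 0.176 CPM in C57BL/6J males, 6.36 to 7.27 CPM in CAST/EiJ females and 2 to 5.61 CPM in CAST/EiJ males. Since the sources used here name no strand setting for the counting, Tsix and Xist reads cannot be told apart. Xist itself was at 873 to 2050 CPM in C57BL/6J females, 0.155 to 1.59 CPM in C57BL/6J males, 1020 to 1580 CPM in CAST/EiJ females and 1.78 to 3.05 CPM in CAST/EiJ males, so that CAST/EiJ males overlapped C57BL/6J females for Tsix but lay far below them for Xist. Rab24, a small GTPase linked to autophagy, differed by 0.20 in females and by -0.73 in males, an interaction of -0.94 (adjusted p = 0.040). That call was lost in 11 of the 16 fits that left out a single library (adjusted p 0.0136 to 0.156 over all 16), with library totals alone (0.662) and without the 3 libraries and C57BL/6J female replicate 2 (0.439). CAST/EiJ males held the lowest values, at 13.7 to 18.8 CPM, and C57BL/6J males the highest, at 25.6 to 29.4 CPM.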

How the data were processed

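Per the labels' protocols, the authors purified RNA from islets, added an ERCC spike-in (not analysed here), selected polyadenylated RNA and made libraries with the KAPA mRNA HyperPrep kit for paired-end sequencing. The authors deposited estimated counts per gene for 22904 genes, not normalized, of which 23.6% are not whole numbers, and the same genes after a variance-stabilising transform, as log2 values. The submitters' processing notes name GRCm38 and DESeq2; no aligner, counting program or strand setting is named in the sources used here. Counts were rounded before testing.

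The test was edgeR's quasi-likelihood F test (edgeR 4.0.16, R 4.3.3) on the 16 libraries with sex as a block, TMM factors, a filter at a minimum count of 10 (18824 genes kept) and Benjamini-Hochberg adjustment at 0.05 over all genes tested. It was also run on simulated data in which few genes differed, unlike these data, so that run does not show its error rate here. Sex and diet interactions used the same model with the added term. Gene coordinates are those of the annotation matched by identifier on GRCm38, in which 22763 of 22904 genes were found. Alternatives were limma 3.58.1, DESeq2 1.42.0, other scalings and filters, the acinar score as a covariate, and fits without libraries.

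Named genes were the 8 largest near-absent genes (under 0.5 against at least 5 CPM) and the 10 largest other non-overlapping genes in each direction, up to 4 called members of each list, and key members of lists; gene copies, Tsix and Rab24 and further list members were named after their values were seen. Genes without a descriptive symbol were passed over. The comparison and the gene lists were chosen with earlier results of these data known. Replicate numbers follow accession order and pair nothing. Some genes of these lists are counted in them but not reported by name here.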

Additional observations from a re-analysis of the deposited data

Results flagged for a closer look

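In each strain's 8 libraries, 48 genes and the library shares were examined for a highest or lowest value far from the rest of its group by Dixon's criterion, 104 groups in all, of which 10 stood apart. Chance alone sets apart about 5% of such groups. CAST/EiJ female replicate 1 was the highest library of its strain for mt-Co2 (142 CPM, next 40.6) and Folr1 (2.07 CPM, next 0.706). It was also the highest for Olfm4 (1.88 CPM, next 0.747) and H2-D1 (51.5 CPM, next 38.5). Of the CAST/EiJ libraries it had the highest level of the markers that CAST/EiJ islets nearly lack, 9.25% of the C57BL/6J level. CAST/EiJ male replicate 2 was the highest for the acinar share (16.4%, next 6.73%) and for Cckar (247 CPM, next 140). CAST/EiJ male replicate 4 was the highest for Aldh1a3 (25.1 CPM, next 17.4).

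Among the C57BL/6J libraries, female replicate 1 was the highest for Ifih1 (45.9 CPM, next 31.6), male replicate 3 for Iigp1 (10.1 CPM, next 5.72) and female replicate 2 for H2-Ea-ps (0.256 CPM, next 0.0185). That last library also held transcripts typical of NZO/HlLtJ islets, at 1.3% of their level in that strain, a value that rests on 2 markers; CAST/EiJ female replicate 2 stood higher on them, at 2.31%, and the other 14 libraries at 0.775% or less.

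The strain difference itself varied with sex, by the interaction test, for Tsix (5.10 on the log2 scale) and Rab24 (-0.94). The Rab24 call was lost in 11 of 16 fits that left out a library, and both calls were lost without the 3 CAST/EiJ libraries and C57BL/6J female replicate 2.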

How the results depend on the processing

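The number of genes called ranged from 7757 with library totals alone to 10725 with the number series as a factor, over the alternatives that kept all 16 libraries, and from 9520 to 10028 when a single library was left out (higher 4484 to 4830, lower 5019 to 5274). Within number series 76 alone it was 2461 (1189 higher, 1272 lower) and within series 89 alone 6043 (2865 higher, 3178 lower), with fewer libraries. The sex interaction called 1 gene with library totals alone, 49 with DESeq2, 5 with the series as a factor, and 1 to 45 with a library left out, the 45 without CAST/EiJ female replicate 3. The diet interaction called 9 genes with DESeq2, 3 in the model of all 45 libraries and 0 to 1 with a library left out. Of 140 called genes followed through the alternatives, all kept their direction under every alternative, but not all kept their call. In females alone 12 of them missed the threshold and in males alone 15, with fewer libraries in each fit. Ppy missed it in both (edgeR, adjusted p = 0.143 in females and 0.0915 in males). Ghrl missed it in females (0.237), and Mafa (0.0869) and Col1a1 (0.0969) in males.

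Directions turned only for genes that were not called. Gbp3 was at 0.01 without the 3 libraries, without those and C57BL/6J female replicate 2, in series 80 and in males, at 0.17 in series 76 and between -0.16 and 0.03 with a library left out. Mx1 was at -0.78 in series 89, at -0.06 in females and at -0.11 to 0.40 with a library left out. Ins2 was at -0.15 in series 80 and at -0.01 to 0.10 with a library left out, Gcg at 0.33 in series 80 and 0.02 in males, Prss2 at 0.07 in series 80, Tapbp at 0.01 in series 89 and H2-Q10 at 0.19 in series 76. Without the 3 libraries and C57BL/6J female replicate 2, 7 of the called genes missed the threshold. Among them were G6pc2 (edgeR, adjusted p = 0.0501), Phgdh (0.0525), Prss1 (0.0601), B2m (0.119) and Oas1b (0.182). B2m also missed it in the model of all 45 libraries (0.16). The causes were not tested. DESeq2 gave no adjusted p for H2-Ea-ps, Lefty1, Fam213b and mt-Co2.

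No paired analysis was possible because replicate numbers were given in accession order and the labels tie no library of one strain to one of the other.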

Other observations

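Of 22 genes near diabetes risk loci 9 were lower and 1 higher in CAST/EiJ (median log2 difference -0.16), with Hhex and Pam of the report among the lower ones; without the 3 CAST/EiJ libraries no member was called higher. D cyclins, their kinases and inhibitors gave 7 higher and 3 lower of 14 (median 0.12), zinc transporters and metallothioneins 4 higher and 1 lower of 11 (0.05), and insulin and IGF signalling 7 higher and 5 lower of 21 (0.08). Chemokines, cytokines and NF-kB targets gave 4 higher and 3 lower of 17 (0.28), and complement genes 2 higher and 4 lower of 12 (0.19). Some of these counts rest on single libraries. With a library left out, complement members called higher ranged from 2 to 5 (5 without C57BL/6J male replicate 1), zinc members lower from 1 to 3 (3 without C57BL/6J female replicate 1) and insulin and IGF members lower from 3 to 7 (3 without C57BL/6J male replicate 1, C57BL/6J female replicates 2 or 3, or CAST/EiJ female replicate 2, and also 3 without the 3 CAST/EiJ libraries).

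Of 17 circadian clock genes 2 were higher and 1 lower (median 0.03) over both sexes, but 4 higher and 2 lower in females alone and 3 higher and 4 lower in males alone. Dbp, a clock-controlled transcription factor, differed by 1.09 in females (edgeR, adjusted p = 0.00142) and by -0.48 in males (0.111), and Per3, a period gene, by 0.05 (0.893) and -1.19 (0.0023). The sex interaction was not called for either gene (-1.57, adjusted p = 0.286, and -1.24, 0.724). For Dbp it was called with DESeq2 (-1.55, 0.00208) and without CAST/EiJ female replicate 3 (-1.22, 0.0254). It was -2.37 for Dbp without the 3 CAST/EiJ libraries and C57BL/6J female replicate 2, a fit that left 1 CAST/EiJ female. These genes were chosen after their values were seen. Of 17 immediate early genes 1 was lower and none higher (-0.18). On 10% fat the immediate early list had 5 higher and 1 lower, with a median of 0.81. Hypoxia response genes gave 5 higher and 5 lower of 18 (-0.08), and lipid uptake and droplet genes 6 higher and 4 lower of 17 (0.02).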
